A study of Mus musculus with 6 samples.

Results

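The 9 transcription factors followed here pattern the dorsal telencephalon, and their transcripts were counted in 6 RNA-seq libraries of mouse embryonic forebrain: Pax6, Emx1, Emx2, Lhx2, Nr2f1, Nr2f2, Sp8, Dmrta2 and Nr2e1. They were taken from the deposited count table by gene symbol, as 9 of its 52636 genes, and all 9 were among the 16869 genes with enough counts to be tested. The cells were sorted at E12.5 by an antibody against the surface protein Prominin1 and are labelled radial glia, the neural progenitors that line the ventricle. Transcripts of other cells were present too. In counts per scaled library total (CPM), 9 cortical neuron markers summed to 4260 to 5910 CPM and 10 radial glia markers to 1910 to 2350 CPM. Both groups carried 1 floxed and 1 wild-type allele of each of Smad1 and Smad5 (Smad1wt/fl;Smad5wt/fl) in mixed backgrounds of the strains CD1, 129/ola and C57BL6. The embryos labelled SmadNes also carried Nestin:Cre+/0, and the control littermates did not (Nestin:Cre0/0). Each group held 3 pools, named SF3, SF4 and SF5_6 in both, so each name joins 1 control and 1 SmadNes library. Nestin:Cre acts in neural progenitors and their progeny, so cells that arise outside that lineage keep both floxed alleles. The labels speak of dissected forebrains and of cortical radial glia, and they do not say how many embryos a pool held. Where the pools were not separate litters, the p-values below measure only the spread between these pools.

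Area identity of the cortex begins in its progenitors, before thalamic axons arrive. FGF signals from the rostral pole, and Wnt and BMP signals from the cortical hem at the medial edge, set up opposing gradients of transcription factors in the ventricular zone, and the level of these factors biases where frontal, motor, somatosensory and visual areas will form. Emx2, Nr2f1, Nr2f2 and Dmrta2 are known for high caudal expression, Pax6 and Sp8 for high rostral expression, and Lhx2, Emx1 and Nr2e1 for keeping the dorsal progenitor state. Smad1 and Smad5 are transcription factors that carry BMP signals into the nucleus, and the design compares radial glia with and without the Cre that removes their floxed copies.

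Stretches near the start sites of 4 of these genes are shown, Dmrta2 and Emx2 because each has an antisense partner that starts beside it, and Sp8 and Nr2f2 because their counts ranged most widely over the libraries. The bases come from RefSeq on GRCm38.p6, with those that the gene's own annotation marks as untranslated left out, except for Emx2, whose whole RefSeq window is annotated as exon and which is given as 30 bases. Capitals mark GGCGCC, a palindrome known to be bound by Smad1 and Smad5, the Smad box, which is GTCTG or on the other strand reads CAGAC, and the Wnt motif of TCF and LEF factors, which is CTTTGA or on the other strand reads TCAAAG. The stretches read 5′ to 3′ on the strand of the gene and lie at chr4:109977775-109978052 on the plus strand (Dmrta2), chr12:118846983-118847282 on the plus strand (Sp8), chr7:70366736-70366996 on the minus strand (Nr2f2) and chr19:59458440-59458469 on the plus strand (Emx2).
Dmrta2: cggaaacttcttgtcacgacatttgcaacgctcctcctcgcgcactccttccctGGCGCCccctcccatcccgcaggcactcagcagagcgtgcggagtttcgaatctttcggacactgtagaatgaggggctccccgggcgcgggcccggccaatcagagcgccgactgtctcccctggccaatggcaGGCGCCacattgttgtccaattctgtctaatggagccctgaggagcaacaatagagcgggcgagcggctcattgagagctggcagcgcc
Sp8: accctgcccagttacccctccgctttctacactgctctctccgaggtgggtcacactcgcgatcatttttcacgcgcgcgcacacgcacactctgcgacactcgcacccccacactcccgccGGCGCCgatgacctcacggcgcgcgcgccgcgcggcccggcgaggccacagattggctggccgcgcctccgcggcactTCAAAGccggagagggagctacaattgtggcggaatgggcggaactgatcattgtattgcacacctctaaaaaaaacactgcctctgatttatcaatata
Nr2f2: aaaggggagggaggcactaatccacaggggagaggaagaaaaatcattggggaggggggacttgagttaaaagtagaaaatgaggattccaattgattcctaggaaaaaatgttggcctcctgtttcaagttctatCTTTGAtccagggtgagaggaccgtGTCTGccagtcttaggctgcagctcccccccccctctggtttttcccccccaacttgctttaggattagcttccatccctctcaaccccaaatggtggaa
Emx2: gagaagccgcagcgGGCGCCgcaggagcga

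RefSeq gave 14 start-site windows of equal length for the 9 genes, matches were counted on both strands, and none of the 3 motifs contains another. GGCGCC was found in 4 of the 14 windows, 1 each of Dmrta2, Emx2, Lhx2 and Sp8, against 11.9% of 32851 windows of all genes. The Dmrta2 stretch holds it at 2 places. The Smad box was found in 5 of 14 windows against 49.6% of all, and the TCF/LEF motif in 2 of 14, those of Nr2f2 and Sp8, against 16.0%. The Nr2f2 stretch is poor in CpG, with 1 such pair in 261 bases, while the Sp8 stretch has 32 in 300 and the Dmrta2 stretch 22 in 278. A match is a stretch of letters and not a measured binding site.

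The 6 libraries held between 32997423 and 40744672 counts, and levels are given in CPM, which sets all libraries to a common total after TMM normalization. On that scale 3 counts are worth 0.0909 CPM or less. The targeted genes were higher, not lower, in the libraries labelled SmadNes. The control level of Smad5 was 292 ± 6.74 CPM (SD, n = 3) and its SmadNes level 391 ± 18.8 CPM, while Smad1 was at 75.6 ± 2.58 and 88.5 ± 3.83 CPM, each higher in 3 of 3 pairs. A count over the whole gene does not show whether the floxed exons were lost, and so neither value tests the deletion. With the pool name as a term edgeR called Smad5 (adjusted p 0.00757) and not Smad1 (0.257). Loss of the floxed exons was not tested, and every genotype direction below is between libraries as labelled. Prom1, the sort marker, stood between 106 and 132 CPM, and the progenitor filament gene Nes between 384 and 566 CPM. The main axis of variation held 52.4% of the variance and set both SF5_6 libraries apart, at scores of 41.68 and 41.34 against -2.79 or lower in the other 4 libraries.

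All 9 factors were well expressed. Per kilobase of exon (RPKM), the order of the levels over the 6 libraries was Lhx2 (180 ± 19.6, SD), Nr2f1 (66.7 ± 10.8), Emx1 (57.0 ± 9.02), Dmrta2 (52.2 ± 4.98), Emx2 (45.1 ± 8.55), Nr2e1 (28.4 ± 2.27), Nr2f2 (12.7 ± 3.35), Pax6 (11.8 ± 0.773) and Sp8 (7.62 ± 2.60). Lhx2 lay at the percentile 99.3 of the tested genes on that scale and Sp8 at 63.5. Lhx2 was above Nr2f1 in every library, with ranges of 163 to 214 and 52.6 to 81.7 RPKM that did not meet. Nr2e1 was likewise above Nr2f2 (26.6 to 32.3 against 9.52 to 18.9 RPKM). All other neighbours in the order had ranges that overlapped, though Emx2 was above Nr2e1 and Pax6 above Sp8 in 6 of 6 libraries. Nr2f2 was above Pax6 in 3 of 6 libraries. The length counts every annotated exon base of a gene, 11694 for Pax6 and 3002 for Emx2. Before that division their mean levels were 138 and 136 CPM, so the order depends on this length.

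None of the 9 factors differed detectably between the genotypes. Across the whole table, edgeR's quasi-likelihood test called 0% of genes (0 of 16869) at an adjusted p below 0.05, and 0 of the 9, each with an adjusted p of 1. At an unadjusted p below that value lay 177 genes and 0 of the 9, while DESeq2 called 7 genes and limma-voom 1, of which 0 were among the 9. With the pool name added as a term, 0.0237% of genes were called (4 of 16869) and 0 of the 9. For each factor below, the SE is from the fit without that term unless stated otherwise, so it includes the spread between pools. It ran from 0.0768 to 0.347 over the 9, and from 0.036 to 0.117 with the term. The 2 groups overlapped for 9 of 9 factors. The median log2 difference, SmadNes minus control, was 0.03 over the 9 and 0 over all genes tested, and 6 of the 9 were above 0. Levels within each pool name are drawn in the plot of the 9 genes by library.

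**Figure D1:**
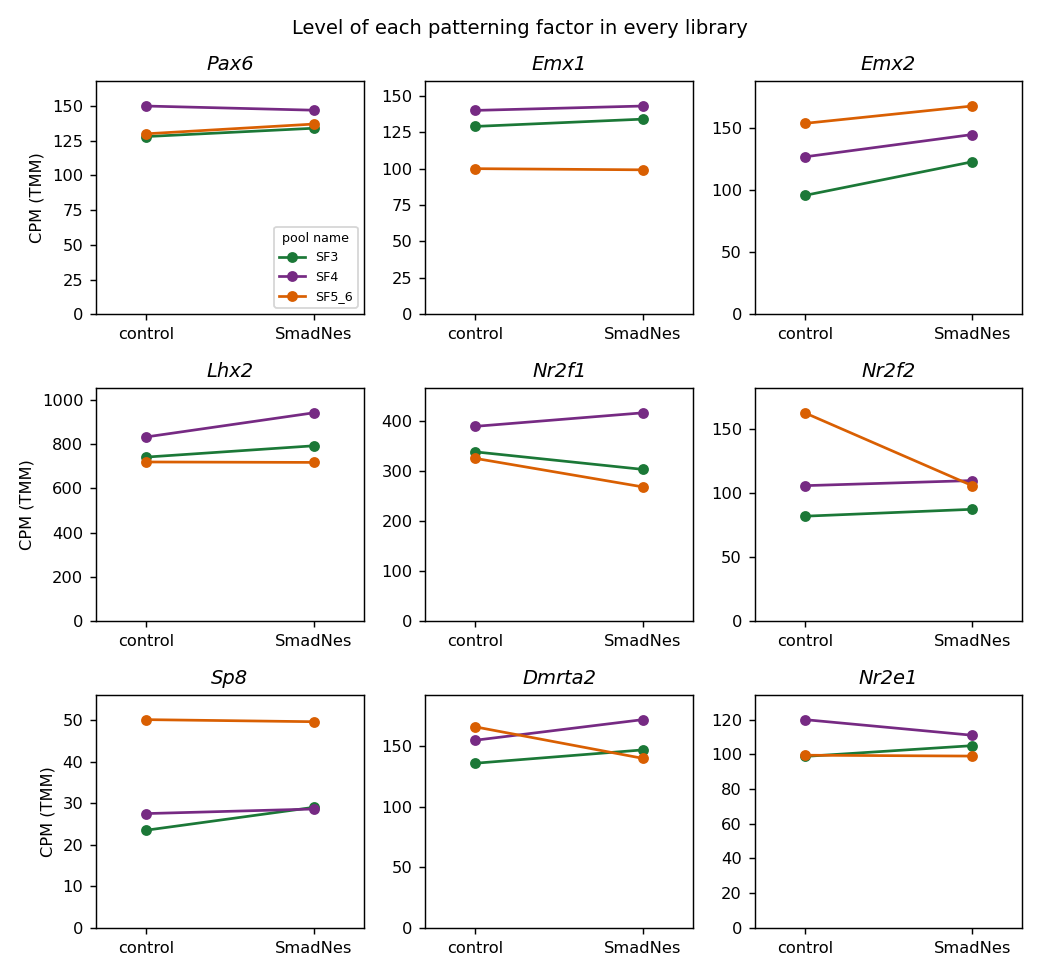
Level of each of the 9 factors in every library, in CPM scaled by TMM (vertical axes start at 0). Lines join the control and the SmadNes library of 1 pool name. For Emx2 the 3 lines rise, from 95.9, 127 and 154 to 123, 145 and 168 CPM, while for Sp8 the SF5_6 line lies at 50.1 and 49.6 CPM, above the others.

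Emx2, the homeodomain factor of caudal and medial cortex (chr19:59458372-59465357, plus strand, ENSMUSG00000043969), was the only factor higher in SmadNes in all 3 pairs. Its control libraries SF3, SF4 and SF5_6 stood at 95.9, 127 and 154 CPM, and the libraries labelled SmadNes at 123, 145 and 168 CPM. The groups overlapped, because the 2 lower SmadNes libraries lay under the control SF5_6 library, but each SmadNes library was above the control of its own pool. The log2 difference was 0.36, 0.20 and 0.12 in the pairs and 0.21 (SE 0.191, edgeR adjusted p 1) over all libraries. With the pool name as a term it was 0.22 (SE 0.0482), with an unadjusted p of 0.00131 and an adjusted p of 0.381. In that fit without the SF5_6 pair, Emx2 passed edgeR's test (log2 0.28, adjusted p 0.00809). The call was not particular to Emx2, since the same fit also called 9 ventral telencephalon markers, 3 Cajal-Retzius markers and 3 cortical hem signals. That fit was among 9 alternative settings that called between 1 and 149 genes each over the whole table. Of all genes tested, 13.8% were higher in 3 of 3 pairs and 14.3% lower, so 1 of 9 is no more than the background.

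Nr2f1 (COUP-TFI, chr13:78188973-78199757, minus strand, ENSMUSG00000069171) is an orphan nuclear receptor that holds back frontal and motor identity. Control SF3, SF4 and SF5_6 stood at 338, 389 and 325 CPM, and SmadNes at 303, 416 and 268 CPM. The SmadNes values spanned the control values on both sides. The log2 difference was -0.09 (SE 0.17).

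Its close relative Nr2f2 (COUP-TFII, chr7:70351944-70366735, minus strand, ENSMUSG00000030551), which also marks the hem and the caudal ganglionic eminence, stood at 82.1, 106 and 163 CPM in control pools and 87.5, 110 and 106 CPM in SmadNes. The control SF5_6 library was above all others, and the remaining 5 lay between 82.1 and 110 CPM. The difference was 0.09 and 0.05 in the SF3 and SF4 pairs and -0.62 in the SF5_6 pair, and -0.21 (SE 0.249) over all libraries. Without control SF5_6 it was 0.10, so its sign rests on that library.

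Dmrta2 (Dmrt5, chr4:109978053-109983687, plus strand, ENSMUSG00000047143) is a DM-domain factor needed for the hem and for caudomedial cortex. It stood at 136, 155 and 166 CPM in control pools and 147, 172 and 140 CPM in SmadNes. SmadNes was higher in the SF3 and SF4 pairs (0.11 and 0.15) and lower in SF5_6 (-0.25), and the fitted log2 difference was 0.00 (SE 0.106).

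Pax6 (chr2:105668900-105697364, plus strand, ENSMUSG00000027168), the paired-box factor of rostrolateral progenitors, was the steadiest of the 9. Control libraries stood at 128, 150 and 130 CPM and SmadNes libraries at 134, 147 and 137 CPM, in the order SF3, SF4 and SF5_6. The highest library was 1.17 times the lowest, and the SmadNes values lay inside the control range. The log2 difference was 0.03 (SE 0.0768).

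Sp8 (chr12:118846329-118852576, plus strand, ENSMUSG00000048562), a zinc-finger factor of the rostromedial pole that acts with Fgf8, was the least abundant of the 9. It stood at 23.5, 27.5 and 50.1 CPM in control pools and 29.0, 28.6 and 49.6 CPM in SmadNes. Both SF5_6 libraries were above all others, whatever the genotype. The log2 difference was 0.09 (SE 0.347), and it was 0.30, 0.06 and -0.01 in the pairs.

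Lhx2 (chr2:38339281-38369733, plus strand, ENSMUSG00000000247), the LIM-homeodomain selector that keeps cortical progenitors from becoming hem, stood at 741, 832 and 719 CPM in control pools and 792, 941 and 717 CPM in SmadNes. The SmadNes SF4 library was highest and both SF5_6 libraries lowest. The log2 difference was 0.10 (SE 0.113).

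Emx1 (chr6:85187438-85204462, plus strand, ENSMUSG00000033726), a homeodomain factor that marks the excitatory lineage of the dorsal telencephalon, stood at 129, 140 and 100 CPM in control pools and 134, 143 and 99.2 CPM in SmadNes. Library partners lay within a log2 difference of 0.06 of each other, and both SF5_6 libraries were lowest. The fitted difference was 0.03 (SE 0.175).

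Nr2e1 (Tlx, chr10:42561963-42583632, minus strand, ENSMUSG00000019803) is an orphan nuclear receptor that maintains progenitors and, with Pax6, the border between pallium and subpallium. It stood at 98.8, 120 and 99.5 CPM in control pools and 105, 111 and 99.0 CPM in SmadNes. The SmadNes values lay inside the control range. The log2 difference was -0.02 (SE 0.0901).

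**Figure D2:**
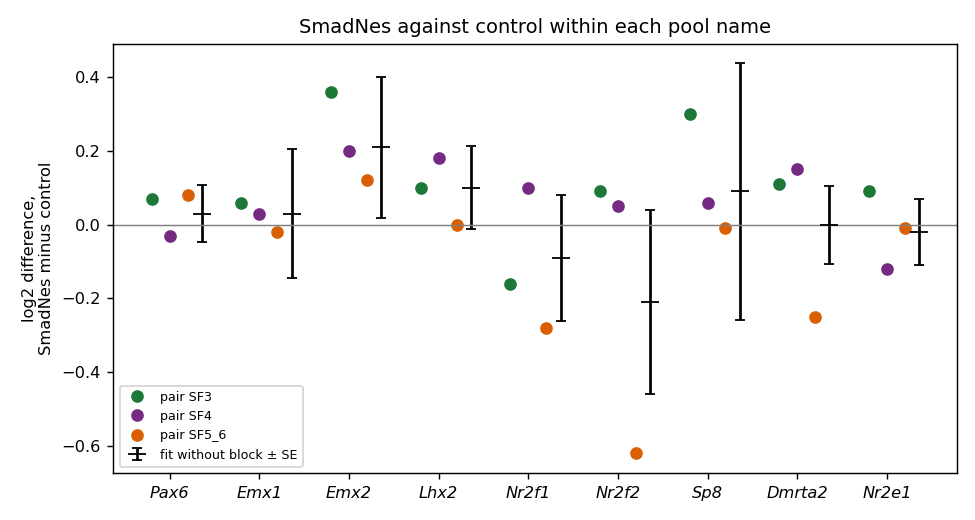
Log2 difference, SmadNes minus control, for each factor. Coloured points are the 3 pairs and black bars the edgeR fit without the pool name, ± SE. The 3 Emx2 points are above 0, and the lowest point is Nr2f2 in the SF5_6 pair, at -0.62.

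Ratios between factors of opposite gradients were compared within each library, where scaling cancels. The log2 ratio of Emx2 to Pax6 in CPM was -0.42, -0.25 and 0.25 in control SF3, SF4 and SF5_6 and -0.13, -0.01 and 0.29 in SmadNes. It was higher in SmadNes in 3 of 3 pairs, but the groups overlapped. The means differed by 0.19 (-0.14 ± 0.35 and 0.05 ± 0.218, SD, n = 3; exact two-sided permutation p = 0.4). The log2 ratio of Nr2f1 to Sp8 was 3.85, 3.82 and 2.70 in controls and 3.38, 3.86 and 2.43 in SmadNes. Its means differed by -0.23 (3.46 ± 0.657 and 3.23 ± 0.726; exact two-sided permutation p = 0.7). For both ratios the p adjusted over the 2 comparisons was 0.7, and 3 against 3 cannot go below 0.1. Both ratios separated the SF5_6 libraries from the others, the first as the highest and the second as the lowest in 2 of 2 libraries.

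Between pools most of the 9 factors did differ. In the fit with genotype, edgeR's test of the pool names called 8 of the 9, all but Dmrta2 (adjusted p 0.199). The background was high: 28.8% of all genes tested were called, and 35.9% of the 6118 genes at least as abundant as Sp8. Each pool name has 2 libraries, 1 of each genotype. Bulk libraries cannot tell fewer cells of a type from less RNA per cell, and this holds for every difference between pools. The labels do not say what sets the pool names apart.

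Sp8 had the largest pool difference. It stood 0.93 (SE 0.0821) higher on the log2 scale in SF5_6 than in SF3 and 0.83 (SE 0.0816) higher than in SF4 (edgeR adjusted p 0.000115). SF4 and SF3 differed by 0.10 (SE 0.0839). Emx1 went the other way, with SF5_6 lower than SF3 by 0.40 and lower than SF4 by 0.51 (log2 -0.40 and -0.51, SE 0.0443 and 0.0442, adjusted p 0.00017). The 2 factors thus moved apart between the same pools.

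Emx2 pool means were 109, 136 and 161 CPM in SF3, SF4 and SF5_6. SF4 was above SF3 by a log2 difference of 0.32 (SE 0.0592) and SF5_6 above SF4 by 0.25 (SE 0.0587, edgeR adjusted p 0.000563). Nr2f2 showed the same order of means, at 84.8, 108 and 135 CPM (adjusted p 0.0237), but its SF5_6 mean joined values of 163 and 106 CPM. Without control SF3 Nr2f2 was no longer called (adjusted p 0.119), nor by DESeq2 (0.225).

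Nr2f1 and Lhx2 were highest in SF4. Nr2f1 means were 321, 403 and 296 CPM (edgeR adjusted p 0.00528), and SF5_6 lay below SF4 by a log2 difference of -0.45 (SE 0.0762). Lhx2 means were 767, 886 and 718 CPM (adjusted p 0.0056), and without the SmadNes SF4 library Lhx2 was no longer called (0.067). Of the 4 caudal factors, Emx2 was highest in both SF5_6 libraries and Nr2f1 in both SF4 libraries. Dmrta2 pool means were 141, 164 and 153 CPM, and the high SF5_6 mean of Nr2f2 rests on the control, since the SmadNes SF5_6 library (106 CPM) was below SmadNes SF4 (110 CPM).

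Pax6 and Nr2e1 passed the test narrowly, with adjusted p of 0.0323 and 0.0364, and moved little. Pax6 means were 131, 149 and 133 CPM and Nr2e1 means 102, 115 and 99.3 CPM, in the order SF3, SF4 and SF5_6. Without control SF4 the adjusted p was 0.415 and 0.364, and without control SF5_6 it was 0.0602 and 0.069. Total count scaling (0.0552 and 0.0878) and DESeq2 (0.0825 and 0.0672) did not call them either. Pax6 was also lost without control SF3 (0.0574) or SmadNes SF4 (0.0538). Dmrta2 was called without control SF4 (0.0343), control SF5_6 (0.00622) or SmadNes SF5_6 (0.00155), and with no filter on low counts (0.00908). Sp8, Emx1, Emx2 and Nr2f1 were called under every alternative tried.

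**Figure D3:**
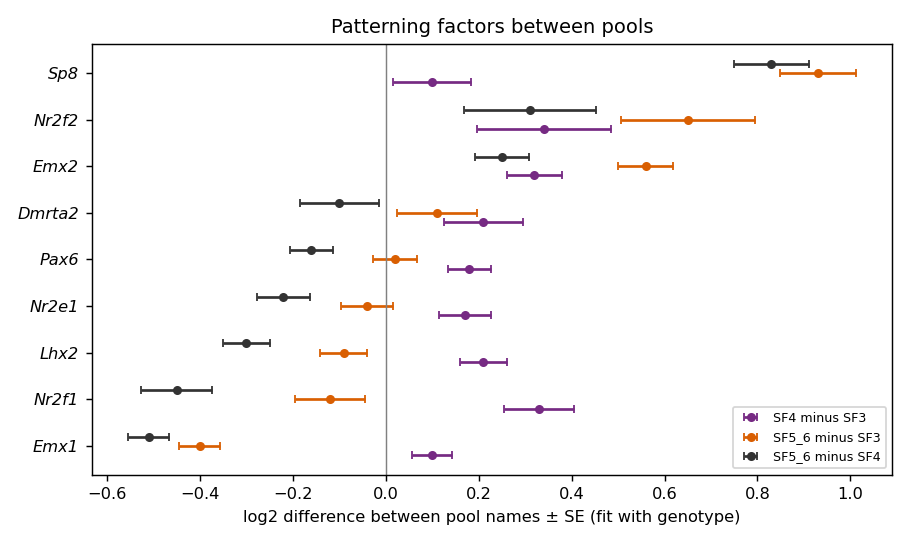
Log2 difference between pool names for each factor, ± SE, from the fit with genotype (2 libraries a pool), ordered by SF5_6 minus SF3. Sp8 stands at 0.93 and Emx1 at -0.40 in that difference. The purple points, SF4 minus SF3, are above 0 for 9 of 9 factors.

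SF4 was above SF3 for 9 of 9 factors (median log2 0.21, against 50.4% of all genes tested above 0). This count depends on the scaling. With TMM scaling the 10 radial glia markers had a median log2 difference of 0.19 for SF4 minus SF3 and 0.27 for SF5_6 minus SF3. Libraries were then scaled to the median log2 level of these markers in each library, which rests on the middle-ranked markers. The median of all genes moved to -0.25 for SF4 minus SF3 and to -0.29 for SF5_6 minus SF3. On that scale 3 of 9 factors, Emx2, Nr2f1 and Nr2f2, were above 0 in SF4 minus SF3. All 9 were above the median of all genes under either scaling. Scaling moves all genes together, so this could not have come out otherwise. For SF5_6 minus SF3, that scaling turned Pax6 from 0.02 to -0.28 and Dmrta2 from 0.11 to -0.19, while Sp8 (0.63), Nr2f2 (0.35), Emx2 (0.27) and Emx1 (-0.70) kept their signs. Scaling to the total count turned Nr2e1 from -0.04 to 0.02.

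Other cell types and regions moved with the pools, beside 28.8% of all genes tested that were called between pools. Their part in the members' differences was not tested. Of 17 tested markers of the ventral telencephalon, 15 differed between pools, and their summed level was 387 and 282 CPM in SF5_6 against 91.3 to 159 CPM in the rest. Among them the GABA-synthesizing enzyme Gad1 was at 15.6 and 13.4 CPM in SF5_6 and 2.94 to 10.1 CPM elsewhere. Of 8 tested markers of diencephalon, midbrain and eye, 7 differed, with sums of 275 and 269 CPM in SF5_6 and 123 to 151 CPM elsewhere, and En1, En2, Gbx2 and Rax had too few counts to be tested. Sp8 and Emx2 were highest in the libraries where these sums were highest. Between genotypes, where 0 of 17 ventral markers were called, their sum was 101 to 387 CPM in controls and 91.3 to 282 CPM in SmadNes, and 13 of 17 were lower in SmadNes in 3 of 3 pairs, the pairs in which Emx2 was higher. Among them Nkx2-1, a factor of the medial ganglionic eminence named after its values were seen, stood at 5.18, 0.397 and 27.0 CPM in control pools and 1.39, 0.243 and 11.7 CPM in SmadNes. With the pool name as a term its log2 difference was -1.39 (SE 0.165, edgeR adjusted p 0.0529), and in that design DESeq2, limma-voom and edgeR with radial glia scaling called it.

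The dorsal lineage itself also differed. The sum of 7 intermediate progenitor markers was 985 and 918 CPM in SF5_6 against 1400 to 1520 CPM elsewhere, with 6 of 7 called. Neurog2, the proneural factor downstream of Pax6, stood at 220 and 211 CPM in SF5_6 against 318 to 348 CPM elsewhere. The 10 radial glia markers summed to 1910 and 2040 CPM in SF3, 2170 and 2250 CPM in SF4, and 2310 and 2350 CPM in SF5_6, with 7 of 10 called. Of 9 cortical neuron markers 7 were called, and their sum was 4270 and 4260 CPM in SF5_6 against 4920 to 5910 CPM elsewhere. The 7 Cajal-Retzius markers, of neurons born partly at the hem, were called in 7 of 7 between pools and in 0 of 7 between genotypes, with sums of 913 to 1060 CPM in controls and 1010 to 1410 CPM in SmadNes. Reln, their secreted glycoprotein, made up most of these sums, at 567 to 881 CPM in controls and 669 to 1170 CPM in SmadNes. In SF5_6 minus SF3 it went against the list, at -0.72, while 6 of 7 markers were above 0 (median 0.55). Reln was higher in SmadNes in 3 of 3 pairs (log2 0.41, 0.34 and 0.24). With the pool name as a term the difference was 0.33 (SE 0.0408, edgeR adjusted p 0.0647), and DESeq2 and limma-voom called it in that design.

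Cells from outside the neural tube were present at levels that also followed the pools. The 9 mesenchyme markers summed to 1020 and 1280 CPM in SF5_6, 624 and 873 CPM in SF3, and 428 and 263 CPM in SF4, with 9 of 9 called. The 6 microglia markers summed to 11.0 and 9.16 CPM in SF4 and 54.6 to 77.1 CPM elsewhere, with 6 of 6 called. Erythroid markers summed to 1090 and 644 CPM in SF5_6, 376 and 357 CPM in SF3 and 115 and 122 CPM in SF4 (7 of 7 tested called), and endothelial markers to 17.0 to 23.0 CPM (2 of 5). No marker in these lists was at 0 in all libraries. The SF4 libraries, where Lhx2, Nr2f1, Pax6, Emx1 and Nr2e1 were highest, held the lowest mesenchyme, microglia and erythroid sums.

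**Figure D4:**
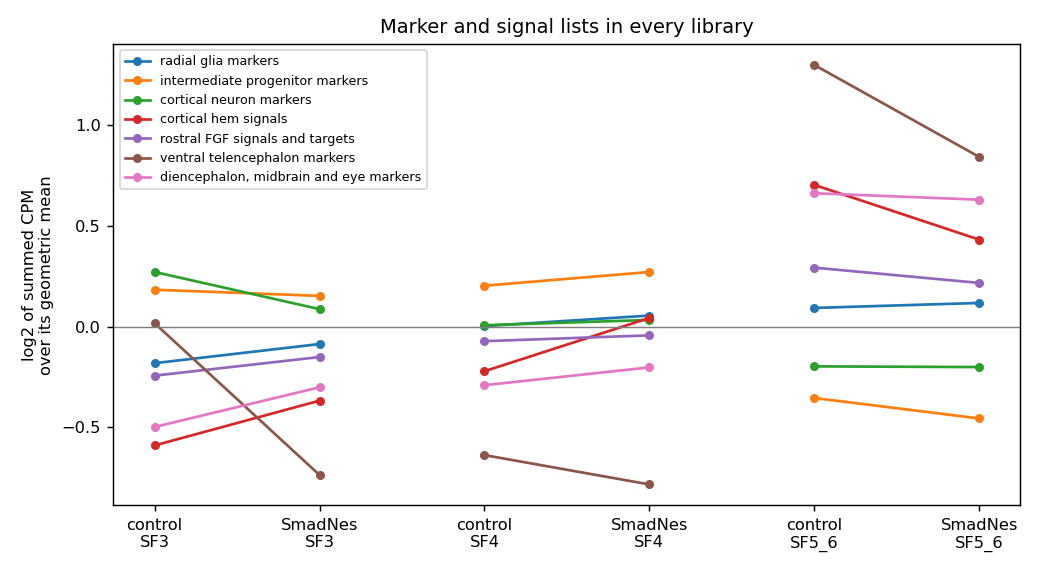
Summed CPM of 7 gene lists in each library, as log2 over the list's geometric mean, with lines joining the libraries of 1 pool name. Ventral telencephalon markers are highest in the SF5_6 libraries (387 and 282 CPM), and intermediate progenitor markers lowest there (985 and 918 CPM).

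Signals known to set the gradients of the 9 factors were counted beside the shares of all genes tested. Those shares were 0% called between genotypes and 28.8% between pools, so the absence of genotype calls was common to all genes. Of 14 genes of the rostral FGF system, 0 were called between genotypes in either direction (median log2 -0.05) and 12 between pools. Fgf15, an FGF ligand of the telencephalic midline, stood at 2.81, 1.51 and 19.2 CPM in control SF3, SF4 and SF5_6 and 2.26, 0.88 and 12.6 CPM in SmadNes. Fgf15 was lower in SmadNes in 3 of 3 pairs and highest in SF5_6, where Sp8 was also highest. The FGF feedback inhibitor Spry2 was at 10.2, 7.91 and 14.4 CPM in control pools and 8.94, 6.77 and 11.0 CPM in SmadNes (log2 -0.28, SE 0.269, adjusted p 1).

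Of 14 cortical hem signals, 0 were called between genotypes (median log2 -0.02) and 13 between pools, against 0% and 28.8% of all genes. All 14 were above 0 in SF5_6 minus SF3 (median 1.15). Rspo2, an enhancer of Wnt signalling, stood at 39.0, 58.4 and 120 CPM in control pools and 42.1, 67.1 and 91.1 CPM in SmadNes. Rspo2 shared with Emx2 the order SF3, SF4, SF5_6 from low to high. The hem ligand Wnt5a stood at 55.7, 60.9 and 79.5 CPM in control pools and 70.6, 82.9 and 67.1 CPM in SmadNes. Of 6 antihem signals 0 were called between genotypes and 3 between pools. Of 10 BMP response genes, 0 were called between genotypes (median log2 -0.09) and 8 between pools. Whether these genes follow Smad1 and Smad5 activity in these cells was not tested. Id1 stood at 5.79, 6.35 and 16.4 CPM in control pools and 5.31, 6.80 and 11.1 CPM in SmadNes. Its log2 difference was -0.12, 0.10 and -0.57 in the SF3, SF4 and SF5_6 pairs. Id4, the gene of this list with the smallest unadjusted p, was higher in SmadNes in each pair (0.20, 0.12 and 0.08). Of the 10 genes, 1 was higher in 3 of 3 pairs and 1 was lower.

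Partners and relatives of the 9 factors were counted in the same way, beside 0% of all genes called between genotypes and 28.8% between pools. Of 16 further dorsal factors 0 were called between genotypes (median log2 -0.02) and 14 between pools. Gli3, the hedgehog effector that Emx genes need for their dorsal expression, stood at 216, 273 and 303 CPM in control pools and 251, 269 and 321 CPM in SmadNes. Gli3 had the same order of pools as Emx2, with SF5_6 above SF3 by a log2 difference of 0.42. Of 8 partner proteins 0 were called between genotypes and 6 between pools. Ldb1, which binds the LIM domains of Lhx2, stood at 398, 397 and 344 CPM in control pools and 376, 377 and 330 CPM in SmadNes, a log2 difference of -0.07 (SE 0.0844). The related Ldb2 was at 10.7, 8.48 and 12.3 CPM in control pools and 6.13, 7.46 and 8.77 CPM in SmadNes, lower in 3 of 3 pairs but with groups that overlapped (edgeR adjusted p 1). Zfpm2 (Fog2), a cofactor of Nr2f proteins, stood at 46.7, 40.6 and 38.2 CPM in control pools and 57.3, 47.0 and 40.9 CPM in SmadNes, higher in 3 of 3 pairs (log2 0.21, SE 0.139, adjusted p 1). Of 8 tested family relatives 0 were called between genotypes and 8 between pools. Sp9, the closest relative of Sp8 and a factor of the ventral telencephalon, stood at 9.75, 3.77 and 16.2 CPM in control pools and 2.00, 2.49 and 13.0 CPM in SmadNes, and it was highest in the same pools as Sp8.

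Antisense neighbours were counted apart from the 9 genes with a stranded kit. Emx2os starts 263 bases inside the annotated start of Emx2 on the other strand, and Dmrta2os starts 240 bases before that of Dmrta2. Emx2os stood at 10.8, 14.9 and 18.8 CPM in control pools and 13.9, 16.4 and 20.0 CPM in SmadNes. Like Emx2 it was higher in SmadNes in 3 of 3 pairs (log2 0.18, SE 0.229, edgeR adjusted p 1) and had the same order of pools (adjusted p 0.00275). Dmrta2os stood at 5.03, 6.42 and 7.14 CPM in control pools and 6.26, 6.37 and 6.29 CPM in SmadNes, with an adjusted p of 0.424 between pools, uncalled like Dmrta2. Pax6os1 was low, at 0.263 to 0.595 CPM, and A830082K12Rik, antisense to Nr2f1, lay at 16.3 to 20.7 CPM. Of these 4 antisense genes, 0 were called between genotypes and 1, Emx2os, between pools.

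**Figure D5:**
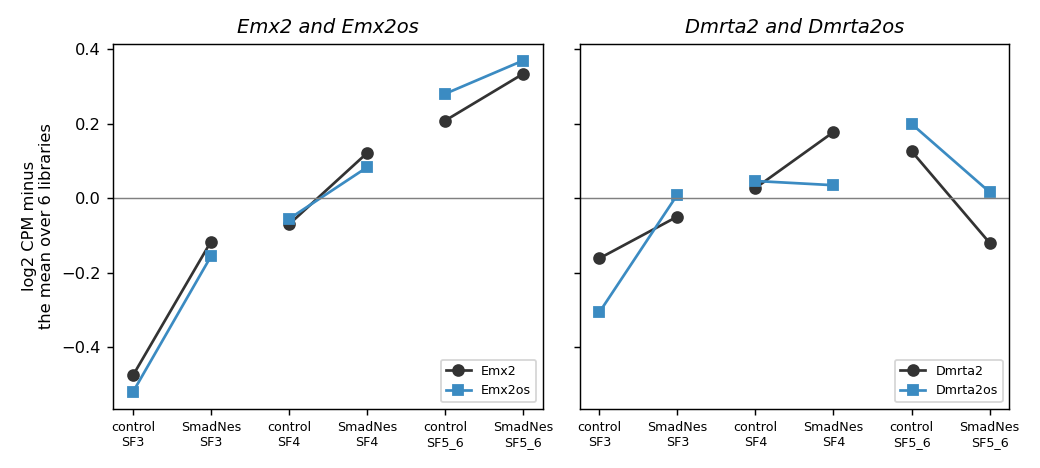
Log2 CPM of Emx2 and Dmrta2 with their antisense neighbours in each library, minus each gene's mean over 6 libraries, with lines joining the libraries of 1 pool name. Emx2os follows Emx2 from the lowest library (control SF3, 95.9 CPM of Emx2) to the highest (SmadNes SF5_6, 168 CPM).

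Likeness of pattern was measured as the root mean square difference in log2 CPM over the 6 libraries, after centring each gene on its mean, among 9920 genes of at least 10 CPM. For Emx2 the nearest were Flnc (0.0444), which encodes a filamin, and Emx2os (0.0460). For Sp8 they were Fam212b (0.0432) and Lrrn1 (0.0726), and for Nr2f2 Cfap69 (0.0471) and Foxj1 (0.0619), both known for cilia and flagella. Few genes came within 0.1 of these factors, 40 for Emx2, 13 for Sp8 and 3 for Nr2f2. Nr2f1 had 10 such genes, the nearest being the Wnt inhibitor Apcdd1 (0.0808) and Cirbp (0.0838).

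The flatter factors had many near neighbours, so a near gene says little there. Within 0.1 lay 3526 genes for Pax6 (nearest Zfas1 and Cdk5rap2), 2437 for Nr2e1 (Mrpl17 and Dhx35), 744 for Lhx2 (Farp1 and Sox6), 590 for Dmrta2 (Zxdb and Rpp25l) and 374 for Emx1 (Dbi and 2310022B05Rik). Among the 9 themselves, Pax6 and Nr2e1 were the closest pair (0.0445) and Emx1 and Sp8 the farthest (0.633). Emx1 and Emx2, paralogues of 1 family, were 0.429 apart. All libraries share their pools here, so these distances describe in part the differences between SF3, SF4 and SF5_6. Some patterns also differed within SF5_6. The centred log2 of Nr2f2 was 0.62 in control SF5_6 and -0.0 in SmadNes SF5_6, and Cfap69 (0.53 and 0.07) and Foxj1 (0.65 and -0.02) shared that split. Nr2f1 (-0.05 and -0.33) and Dmrta2 (0.13 and -0.12) also differed between these 2 libraries.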

How the data were processed

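RNA was measured in 6 pools of sorted cells. Per the labels' protocols, the authors used STAR 2.5.3a for mapping stranded read pairs (GRCm38) and RSEM 1.3.0 for isoforms of GENCODE M15. The deposited values are whole expected counts per gene, but the sources used here do not give how isoforms were summed. The submitters' processing notes also name DESeq2 1.18.

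Counts were analysed with edgeR 4.0.16 (TMM scaling, filterByExpr, quasi-likelihood F test, Benjamini-Hochberg over all 16869 genes tested, threshold 0.05), first by genotype and then for pool names with genotype as a term. DESeq2 1.42.0 and limma-voom 3.58.1 were alternatives, and the procedure was tested on simulated data. Gene positions and exon lengths are from GENCODE M21 on GRCm38, and start-site sequences from RefSeq. The members and gene lists were chosen with earlier results of these data known. From each list, up to 4 genes with the smallest unadjusted p between genotypes are named, with Gli3, Ldb1, Zfpm2, Prom1, Smad1 and Smad5, and for each member the 2 genes nearest in pattern; 1 further gene of that rule is not reported here. Of 50-base words in each member's transcripts, at most 0.438% occur in another gene.

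Pool names pair the libraries. The labels state that pairs of mutant and control RNA were chosen for integrity. Across genes, deviations from the group means correlated at 0.493, 0.697 and 0.724 for libraries of the same name. For libraries of different names the correlation was -0.058 or below. Deviations from a group mean sum to 0 within the group, so these negative values follow in part from the positive ones.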

Additional observations from a re-analysis of the deposited data

How the results depend on the processing

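The call of 0 of 9 factors between genotypes held under other scalings, no filter, DESeq2, limma-voom and the replicate block (adjusted p of Emx2 0.381). Leaving out libraries gave between 0 and 1 called, the 1 being Emx2 in the fit with the replicate block without the SF5_6 pair. The edgeR replicate block on all libraries changed no call of the 9 or of the listed genes. With other tools or scaling the block called listed genes, namely Reln, Nkx2-1 and Hbb-bt by DESeq2, Reln and Nkx2-1 by limma-voom, and Nkx2-1 and Hbb-bt with radial glia scaling. The edgeR block without the SF3 pair called Six3, and without the SF4 pair Reln, Nkx2-1, Isl1, Hbb-bt and 4 mesenchyme markers (Col1a2, Col3a1, Dcn and Lum). Without the SF5_6 pair it made calls among ventral telencephalon markers (9), Cajal-Retzius markers (3), cortical hem signals (3), family relatives (2), cortical neuron markers (1) and erythroid markers (1). Over all genes tested, 9 alternative settings called between 1 and 149 genes between genotypes, against 0 in the main fit. Between pool names the DESeq2 likelihood ratio test called 5 of 9 and the other alternatives 6 to 9. Scaling to radial glia markers raised the calls between pools over all genes from 4864 to 10967.

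The log2 difference between genotypes was near 0 for most factors and turned sign easily. Dmrta2 was at -0.011 with total count scaling, -0.046 with radial glia scaling, -0.053 with that scaling and the replicate block, and -0.001 with DESeq2 and the replicate block. With radial glia scaling, without and with the block, Pax6 was at -0.025 and -0.021 and Emx1 at -0.035 and -0.034. Leaving out 1 library at a time gave -0.007 to 0.109 for Pax6, -0.109 to 0.170 for Emx1, -0.019 to 0.181 for Lhx2, -0.299 to 0.035 for Nr2f1, -0.411 to 0.1 for Nr2f2, -0.225 to 0.480 for Sp8, -0.092 to 0.066 for Dmrta2 and -0.066 to 0.079 for Nr2e1, while Emx2 stayed above 0 (0.049 to 0.379). In the fit with the replicate block, leaving out a pair turned Dmrta2 to -0.045 (SF3) and -0.073 (SF4), Nr2e1 to 0.041 (SF4) and Nr2f2 to 0.071 (SF5_6). The log2 ratio of Nr2f1 to Sp8 ranged from -0.609 to 0.167, above 0 without SmadNes SF5_6, and that of Emx2 to Pax6 from 0.049 to 0.385. With the pairs by replicate block, the exact sign-flip p was 0.5 and 0.25, and 3 pairs cannot go below 0.25. The cause of these changes was not tested. The 3 fits that pair the replicate block with DESeq2, limma-voom or radial glia scaling were chosen after seeing the data. Where a library is left out, the lone library of its pool is assumed to vary like the others.

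The SE of the log2 difference between genotypes was 0.0768 to 0.347 over the 9 factors, and 0.036 to 0.117 with the replicate block.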
